A study of Mus musculus with 74 samples.

Results

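Chemokines are small secreted proteins that direct the movement of leukocytes, and chemokine receptors are the G protein-coupled receptors through which cells sense them. The members described here were genes named Ccl, Cxcl, Cx3cl, Xcl, Ccr, Cxcr, Cx3cr, Xcr or Ackr followed by a number in the tables that compared lung metastases (Lung mets) with primary mammary tumors (PTs). The members numbered 48, 31 ligands and 17 receptors, of 22351 gene symbols in 6 tables. Group means were used for 46 of them, 29 ligands and 17 receptors. The other 2, Ccl20 and Cxcl11, were listed in the Myc table alone, which listed 37 members in all and of which no mean was used.

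The data were bulk RNA-seq of tissue pieces from transgenic female mice. In the oncogenic driver cohort the transgene was carried on the FVB background. FVB Her2 animals carried MMTV-Her2 and FVB Myc animals MMTV-Myc, both under the mouse mammary tumor virus promoter, and FVB C3Tag animals carried C3TAg, the SV40 T antigen under the C3(1) promoter. In the PyMT-F1 cohort, FVB males with MMTV-PyMT, the polyoma middle T antigen, were bred to BALB (BALB/NJ in the labels, BALB/cJ in the methods), SEAGN (SEA/GNJ) or AKR (AKR/J) females, and the F1 daughters were sampled. There were 6 PTs and 6 Lung mets of each model, and 7 of each in C3Tag. The PTs of an animal were combined before a fragment was taken, whereas metastases were used whole. Single driver-model tumors were resected and the animals aged on, whereas PyMT-F1 animals kept their tumors until the endpoint, so the time between the tissues differed between the cohorts. No animal received a treatment, and ages were not labelled.

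Each table gave 1 mean of normalized counts per gene for PT and 1 for Lung met, so every value below is an authors' mean with no SD, no n and no test, and the spread between animals could not be set against any difference. The measure used throughout was the log2 ratio of the Lung met mean over the PT mean. A gene was counted as higher or lower where the means differed at least 2-fold, which is a description of size only. The models were normalized separately, so ratios, not levels, are set side by side, and levels of different genes were not compared. In bulk tissue, fewer cells of a type and less RNA per cell cannot be told apart. The table deposited under the AKR name is called the AKR-named comparison, because its strain was not settled: the study's supplementary lists point to its BL6 cross, so its means may not come from the AKR samples described above. Labels were also at odds for single samples: the genotype label named another strain than the sample title in 23 of 36 PyMT-F1 samples, and the source name gave the other tissue than the title in 16 samples of the series.

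Chemokine ligands fall into CC, CXC, CX3C and XC families by the spacing of their first cysteines, and each binds 1 or more receptors of the matching family. Inflammatory chemokines recruit neutrophils, monocytes and effector lymphocytes to inflamed tissue, whereas homeostatic chemokines place cells within lymphoid organs and at epithelial barriers. Atypical receptors, the Ackr group, bind chemokines without classical G protein signalling and can remove them from the tissue. Lung is rich in neutrophils, resident macrophages and epithelium that makes some of these ligands, whereas mammary tumors hold recruited macrophages and fibroblasts.

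Cxcr2 and Ackr2 were the members that were at least 2-fold higher in Lung met in all 5 comparisons with means. Cxcr2, the receptor of the neutrophil-attracting CXC ligands, was between 1.42 and 5.13 higher on the log2 scale, and Ackr2, a scavenger of inflammatory CC ligands, between 1.66 and 3.49. Ccl6, a CC ligand made by myeloid cells, was higher in all 5 comparisons and at least 2-fold so in 4. Members at least 2-fold lower numbered between 0 and 3 per comparison, and the lowest ratio of any member was that of Ccl8 in Her2, at -4.07. Of the 12317 gene symbols with means in all 5 comparisons, 0.552% were at least 2-fold higher in every one.

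More members were at least 2-fold higher than lower in each comparison, although by 4 to 3 only in Her2. In Her2, 4 of 37 members were at least 2-fold higher in Lung met and 3 were lower, against 2.38% and 1.43% of all genes in that table. In C3Tag, 10 of 40 were higher and 2 lower, against 7.42% and 1.70% of all genes. In BALB, 4 of 27 were higher and 0 lower, where 2.26% and 2.40% of all genes were. In SEAGN, 5 of 29 were higher and 0 lower, where 2.86% and 3.22% of all genes were. The AKR-named comparison had the most, with 15 of 42 higher and 2 lower, where 7.31% and 1.73% of all genes were. The percentage of members that were at least 2-fold higher, between 10.8% and 35.7%, was thus above that of all genes in each of the 5 tables. The percentage at least 2-fold lower was also above that of all genes in 3 of them. It was 8.11% in Her2, 5.00% in C3Tag and 4.76% in the AKR-named comparison, and 0 in BALB and SEAGN. Many members lay low in their tables: between 16 and 26 members per comparison reached the lower quartile of the gene levels.

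At least 2-fold lower were 3 ligands in Her2, 2 in C3Tag, 2 in the AKR-named comparison and 0 in BALB and SEAGN, and 0 receptors in any comparison. With 12 to 16 receptors a table and 1.43% to 3.22% of all genes 2-fold lower, these counts do not tell ligands and receptors apart. At least 2-fold higher were 2 of 22 ligands and 2 of 15 receptors in Her2, 7 of 25 and 3 of 15 in C3Tag, 2 of 15 and 2 of 12 in BALB, 1 of 13 and 4 of 16 in SEAGN, and 9 of 27 and 6 of 15 in the AKR-named comparison. The medians of both kinds were between 0.05 and 0.28 except in the AKR-named comparison, where they were larger. The median log2 ratio of the ligands was 0.14 in Her2, 0.16 in C3Tag, 0.16 in BALB, 0.05 in SEAGN and 0.74 in the AKR-named comparison. For the receptors it was 0.11, 0.22, 0.28, 0.22 and 0.72 in the same order, while the median of all genes lay between -0.00 and 0.03.

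**Figure D1:**
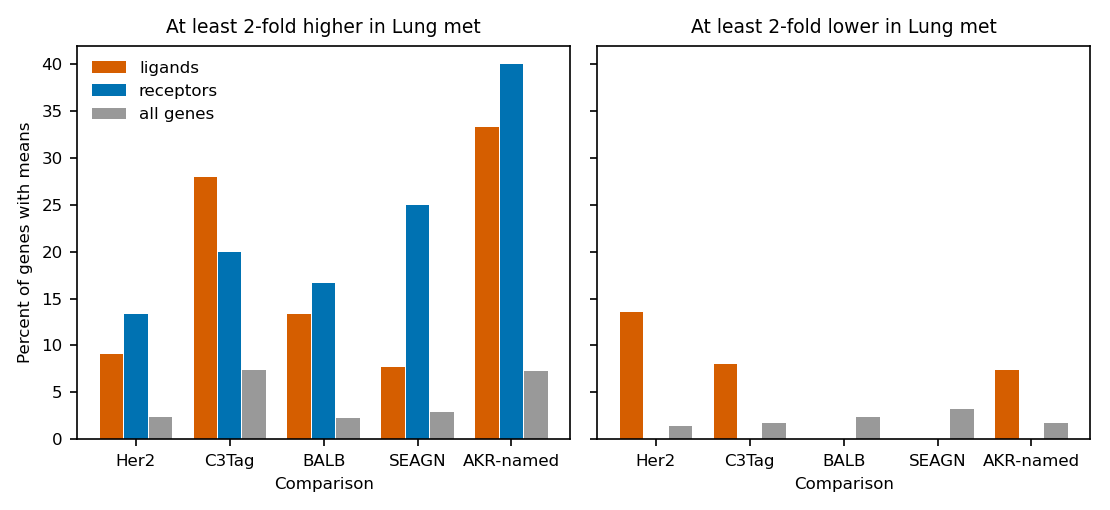
Percentage of genes at least 2-fold higher (left) or lower (right) in Lung met than in PT, for ligands, receptors and all genes with means in each of the 5 comparisons; bars start at 0 and have no error because each gene has 1 mean per tissue. No receptor bar is seen on the right, and the ligand and receptor bars reach 33.3% and 40.0% on the left in the AKR-named comparison.

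Among the 22 members with means in all 5 comparisons, 7 were higher in Lung met in every one, by any amount, and 2 were lower, whereas 11.6% and 6.29% of all genes with means in all 5 were. The 7 were the ligands Ccl6, Ccl9, Cxcl12 and Cxcl16 and the receptors Ackr2, Ccr1 and Cxcr2, and the 2 were the receptors Ccr10 and Cx3cr1. Ccl6 and Ccl9 are myeloid products of rodents that bind Ccr1, so 2 ligands and their receptor were in the same group. Cxcr4, the receptor of Cxcl12, was at -0.25 in the AKR-named comparison. Without that comparison it joined the higher group, which then held 8 of 23 members. The share of all genes higher in every remaining comparison was not computed, and the 11.6% does not apply to it. Rank correlations of the members' log2 ratios between any 2 comparisons lay between 0.32 and 0.73 over 25 to 37 members, and those of all shared genes between 0.08 and 0.46. The points of each such pair share the contrast of tissues, and these values are a description.

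**Figure D2:**
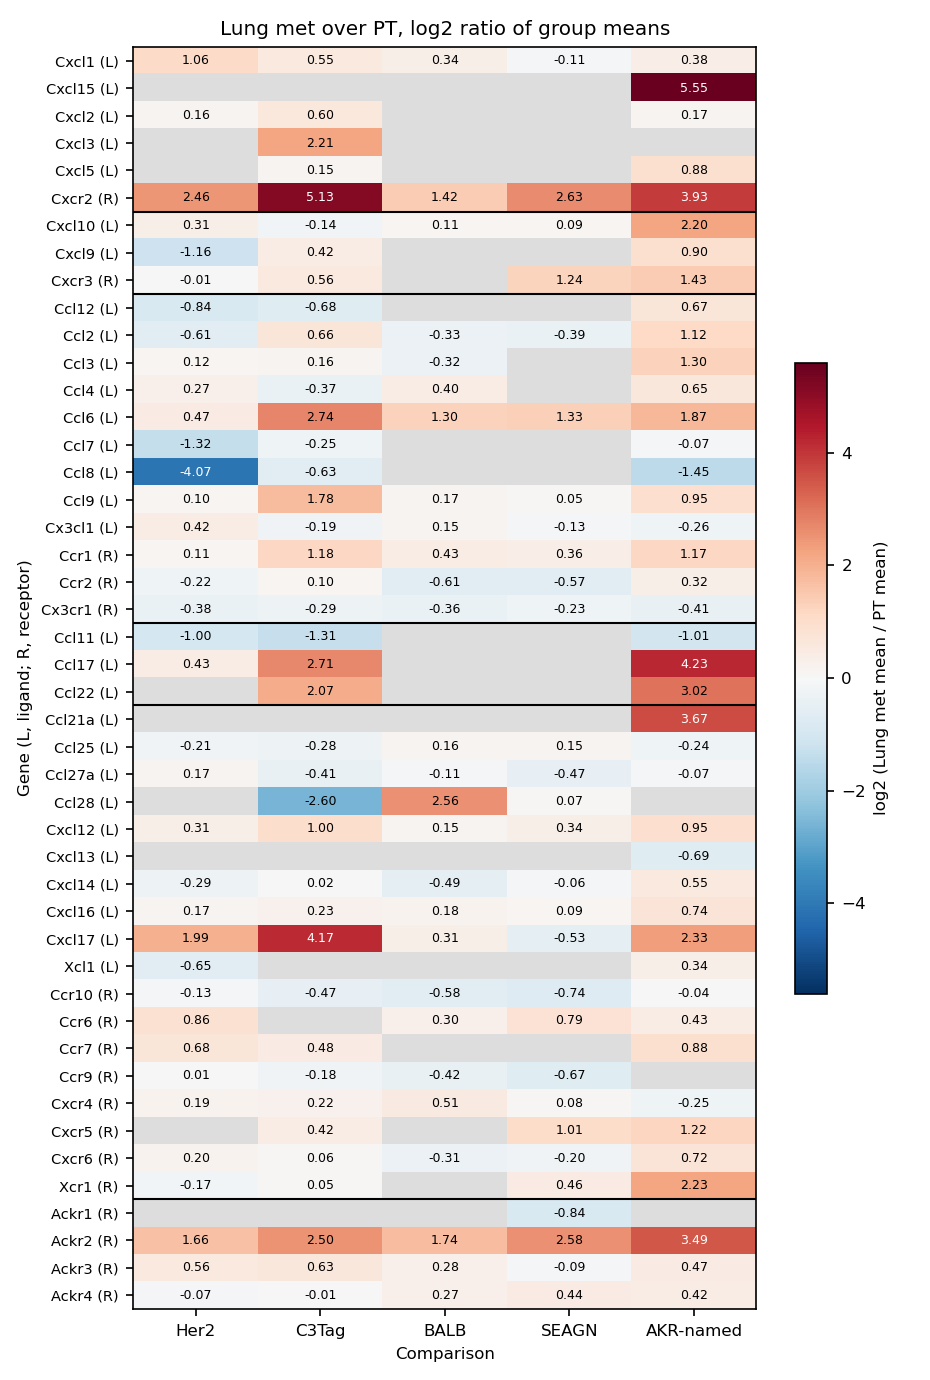
Log2 ratio of the Lung met mean over the PT mean for the 46 members with means (rows; L, ligand; R, receptor) in the 5 comparisons (columns), grouped by role with black lines between the neutrophil-directed, interferon-inducible, inflammatory, type 2, homeostatic and atypical members; red is higher in Lung met, blue lower, grey not listed with means. The rows of Cxcr2 and Ackr2 are red throughout, from 1.42 to 5.13 and from 1.66 to 3.49.

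The neutrophil-directed CXC members showed a large difference in the receptor and smaller ones in most ligands. Cxcr2 carries neutrophils out of bone marrow and into tissue. Its mean was 3.82 in PT and 21.0 in Lung met of Her2, 46.2 and 1615 in C3Tag, 18.2 and 48.8 in BALB, 13.8 and 85.6 in SEAGN, and 27.6 and 421 in the AKR-named comparison. The log2 ratios were 2.46, 5.13, 1.42, 2.63 and 3.93, so that Lung met was higher in each model, by 2.68-fold at the least in BALB and 35.0-fold at the most in C3Tag. In every table at least 99.0% of genes had a lower ratio than Cxcr2. Its level in Her2 was under the lower quartile of that table. Cxcr1, the other receptor of this class, was not listed with means.

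Markers of neutrophils moved with Cxcr2. Of the 5 markers, S100a8, S100a9, Retnlg, Ly6g and Csf3r, between 3 and 4 were listed per comparison, all of them higher in Lung met, and Ly6g was listed in none. Their summed mean was 134 in PT and 334 in Lung met of Her2, 462 and 3005 in C3Tag, 219 and 596 in BALB, 240 and 761 in SEAGN, and 649 and 8252 in the AKR-named comparison. The median log2 ratios of the list were 2.05, 3.15, 1.41, 2.27 and 3.87. The part of neutrophil number in the difference of Cxcr2 was not tested.

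Among the ligands of Cxcr2, Cxcl1 was higher in Lung met in 4 of 5 comparisons. Its means were 113 in PT and 237 in Lung met of Her2, 322 and 471 in C3Tag, 68.3 and 86.6 in BALB, 63.4 and 58.7 in SEAGN, and 358 and 466 in the AKR-named comparison. Only Her2, at a log2 ratio of 1.06, passed 2-fold. Cxcl2, a close relative, had log2 ratios of 0.16 in Her2, 0.60 in C3Tag and 0.17 in the AKR-named comparison. Cxcl3 was listed in C3Tag alone, at 17.1 in PT and 79.1 in Lung met, a log2 ratio of 2.21 at a level under that table's lower quartile. Cxcl5, made by epithelium, had ratios of 0.15 in C3Tag and 0.88 in the AKR-named comparison. In the tables that listed them, each of these ligands had a smaller ratio than Cxcr2. Ppbp, the platelet ligand of Cxcr2, which carries a symbol outside the families, did not: it was at 1.03 in Her2, 3.04 in C3Tag and 4.02 in the AKR-named comparison, the last above Cxcr2.

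Cxcl15, or lungkine, a ligand made by lung epithelium, had the largest ratio of any member. It was listed with means in the AKR-named comparison alone, at 197 in PT and 9229 in Lung met, a log2 ratio of 5.55, with 99.9% of genes lower. Markers of lung epithelium moved with it. Of 10 such markers, 5 were listed in each comparison, all 5 at least 2-fold higher in Lung met, with median log2 ratios of 4.71 in Her2, 4.75 in C3Tag, 4.04 in BALB, 5.12 in SEAGN and 4.62 in the AKR-named comparison. In the last, their summed mean was 713 in PT and 25343 in Lung met. Sftpc, Sftpb, Sftpa1, Scgb1a1 and Scgb3a2 were the 5 not listed in any table. The part of lung tissue taken with the metastases in the ratio of Cxcl15 was not tested.

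The genes of the neutrophil-directed ligands lie side by side on mouse chromosome 5, where 9 of the 48 members are, all ligands. Chromosome 11 holds 12 members, 10 of them ligands, and chromosome 9 holds 9, all receptors, by GENCODE M21 on GRCm38. Cxcl1 lies at chr5:90891241-90893115, Cxcl2 at chr5:90903871-90905938 and Cxcl3 at chr5:90786103-90789600, all on the forward strand. Cxcr2 lies apart, at chr1:74153989-74161246, and Ackr2 at chr9:121898355-121911074. Because these ligands share a cluster and are known targets of NF-kappaB, the factor that switches on inflammatory genes, their start regions are shown around the kappaB motif of 10 bases. RefSeq start regions on GRCm38.p6, 250 bases before to 50 after the start, were at hand for 37 members, and both strands were searched. A match was found in 10 of the 41 start regions of members, 24.4%, and in 8.46% of all 32851. The matched bases, overlapping matches joined, are in capitals. Only the stretch farthest before the start is shown for each gene; counted on both strands, the whole region held 4 matches in Cxcl10, 3 in Ackr2, 2 each in Cxcl1, Cxcl2 and Cxcl3, and 1 each in Ccl9 and Ccr1.
Cxcl1, chr5:90891167-90891191, forward strand: gtactccGGGAATTTCCCtggcccg
Cxcl2, chr5:90903795-90903819, forward strand: gagctcaGGGAATTTCCCtggtccc
Cxcl3, chr5:90786021-90786045, forward strand: ctgcgggGGGAATTTCCCcagcccg
Cxcl10, chr5:92349031-92349056, reverse strand: aggggagaGGGAAATTCCaagttcat
Ccl9, chr11:83578654-83578679, reverse strand: tgaactttGGAAAGCCCCaagtcacc
Ccr1, chr9:123968749-123968774, reverse strand: ttagaaggGGGAGGCTCCtcactgac
Ackr2, chr9:121898123-121898148, forward strand: agcacagtGGGGAATCCCactgaggg

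The capitals of Cxcl1, Cxcl2 and Cxcl3 are the same run of letters, read on both strands as overlapping matches. Yet the log2 ratios of those genes in C3Tag, the table that listed all 3, were 0.55, 0.60 and 2.21. The other members with a match were Ccl20, Ccl27a and Ccr6. A match is a string of letters in the window, and no match in the Cxcr2 window says only that the letters are not there.

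Interferon-inducible members attract T cells and NK cells through Cxcr3, and here the comparisons went different ways. Cxcl9 was lower in Lung met of Her2, with 126 in PT and 56.7 in Lung met, and higher in C3Tag, with 96.8 and 129, and in the AKR-named comparison, with 65.2 and 122. The log2 ratios were -1.16, 0.42 and 0.90. Cxcl10 was at most 0.31 from no difference in Her2, C3Tag, BALB and SEAGN. In the AKR-named comparison it had 22.6 in PT and 104 in Lung met, a log2 ratio of 2.20. Its level was under the lower quartile in every comparison but C3Tag. Cxcr3, the receptor of both ligands, had ratios of -0.01 in Her2, 0.56 in C3Tag, 1.24 in SEAGN and 1.43 in the AKR-named comparison. All of these Cxcr3 levels were under the lower quartile. T cell markers gave median log2 ratios of -0.32 in Her2, -0.71 in C3Tag, -0.03 in BALB, 0.25 in SEAGN and 1.19 in the AKR-named comparison, where 5 of 7 were at least 2-fold higher and their sum went from 214 to 412. In that comparison most T cell markers thus moved with Cxcl10 and Cxcr3, although Cd8a was at -0.44. In C3Tag the T cell median was negative while the ratios of Cxcl9 and Cxcr3 were positive. The part of T cells was not tested.

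The inflammatory CC members split by gene. Ccl6 had 518 in PT and 716 in Lung met of Her2, 516 and 3438 in C3Tag, 77.8 and 191 in BALB, 108 and 270 in SEAGN, and 672 and 2461 in the AKR-named comparison. Lung met was higher in each, with log2 ratios of 0.47, 2.74, 1.30, 1.33 and 1.87. The gene lies at chr11:83587882-83593087 on the reverse strand, near Ccl9. Ccl9 had log2 ratios of 0.10, 1.78, 0.17, 0.05 and 0.95 in that order, so that Her2, BALB and SEAGN showed almost no difference. Ccr1, a receptor on neutrophils and monocytes that both ligands bind, had 292 and 314 in Her2, 331 and 751 in C3Tag, 69.6 and 93.8 in BALB, 79.6 and 103 in SEAGN, and 290 and 654 in the AKR-named comparison. It passed 2-fold in C3Tag, at 1.18, and in the AKR-named comparison, at 1.17. The neutrophil markers given above moved with Ccl6 in all 5 comparisons. Of the 5 alveolar macrophage markers 1 to 3 were listed per comparison, and their members did not all go one way. Chil3 was at 5.83 in Her2 and 5.80 in SEAGN, Siglecf at 2.67 in Her2, 3.77 in C3Tag and 3.25 in the AKR-named comparison, and Ear2 at 5.92 in C3Tag and 4.30 in the AKR-named comparison. Krt79, the only one listed in BALB, was at 0.18 there, 1.96 in Her2, -1.18 in C3Tag and -1.25 in SEAGN. Marco, a defining marker, was listed in none, and the part of either cell type in the ratio of Ccl6 was not tested.

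Ccl8, Ccl7, Ccl12 and Ccl2 are monocyte-attracting ligands of a neighbouring group on chromosome 11, and all 4 ratios were negative in Her2. Ccl8 had 692 in PT and 41.1 in Lung met of Her2, 177 and 115 in C3Tag, and 223 and 81.4 in the AKR-named comparison. PT was higher in all 3, with log2 ratios of -4.07, -0.63 and -1.45, and only 0.033% of genes in Her2 had a lower one. Ccl12 had 104 in PT and 58.4 in Lung met of Her2, 103 and 64.3 in C3Tag, and 62.7 and 99.6 in the AKR-named comparison, log2 ratios of -0.84, -0.68 and 0.67. Ccl7 was at -1.32 in Her2 and within 0.25 of no difference in C3Tag and the AKR-named comparison. Ccl2, the main ligand of Ccr2, was at -0.61 in Her2, -0.33 in BALB and -0.39 in SEAGN, and at 0.66 in C3Tag and 1.12 in the AKR-named comparison. The signs of Ccl2 and Ccl12 thus differed between comparisons, and only Ccl2 in the AKR-named comparison was past 2-fold. Levels of Ccl2 were under the lower quartile in BALB and SEAGN. Ccl8, Ccl7 and Ccl12 were not listed with means in BALB or SEAGN, whose tables use the identifiers of another annotation in which many genes carry no name.

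Ccr2, the receptor that brings monocytes from blood into tissue, had 147 in PT and 127 in Lung met of Her2, 261 and 279 in C3Tag, 73.4 and 48.0 in BALB, 96.1 and 64.9 in SEAGN, and 245 and 306 in the AKR-named comparison. The log2 ratios were -0.22, 0.10, -0.61, -0.57 and 0.32, none past 2-fold. Cx3cr1, the fractalkine receptor of patrolling monocytes and tissue macrophages, was lower in Lung met in all 5 comparisons by a small amount. Its means were 1148 and 885, 925 and 757, 209 and 163, 210 and 178, and 486 and 365, with log2 ratios of -0.38, -0.29, -0.36, -0.23 and -0.41. Its ligand Cx3cl1 went both ways, between -0.26 and 0.42. Ccl3 lay between -0.32 and 1.30 and Ccl4 between -0.37 and 0.65. Markers shared by macrophages, Adgre1, Csf1r, Cd68, Mertk and C1qa, had median log2 ratios between -0.32 and 0.29.

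**Figure D3:**
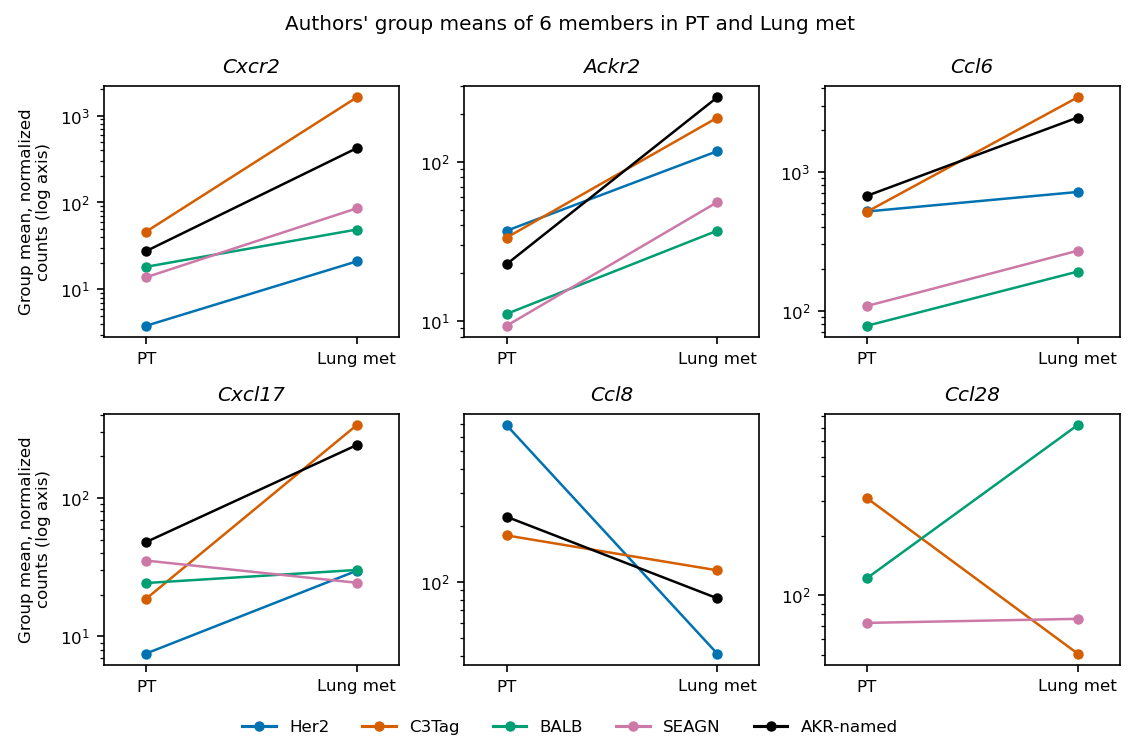
Authors' group means of normalized counts in PT and Lung met (log axis) for Cxcr2, Ackr2, Ccl6, Cxcl17, Ccl8 and Ccl28, 1 line per comparison that listed the gene; levels of different lines were normalized separately and only the slopes are comparable. The lines of Cxcr2, Ackr2 and Ccl6 all go up, those of Ccl8 all go down, and those of Ccl28 cross, from 309 to 50.8 in C3Tag and from 122 to 722 in BALB.

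Type 2 ligands, which attract eosinophils and Ccr4-bearing T cells, were listed in Her2, C3Tag and the AKR-named comparison only. Ccl17, a dendritic cell product that binds Ccr4, had 11.6 in PT and 15.5 in Lung met of Her2, 5.69 and 37.2 in C3Tag, and 17.8 and 333 in the AKR-named comparison. The log2 ratios were 0.43, 2.71 and 4.23. Ccl22, the other Ccr4 ligand, had 16.7 and 70.2 in C3Tag, a ratio of 2.07, and 11.3 and 91.6 in the AKR-named comparison, a ratio of 3.02. Levels of Ccl22, and of Ccl17 outside the AKR-named comparison, were under the lower quartile. Ccl11, or eotaxin, made by fibroblasts among others, went the other way, with 71.4 in PT and 35.7 in Lung met of Her2, 79.4 and 32.0 in C3Tag, and 155 and 76.7 in the AKR-named comparison. Its log2 ratio was just short of 2-fold in Her2, at -1.00, and past it in C3Tag, at -1.31, and in the AKR-named comparison, at -1.01. Levels of Ccl11 were under the lower quartile in Her2 and C3Tag. The receptors Ccr3, Ccr4 and Ccr8 were not listed with means.

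Dendritic cell and fibroblast markers moved with these ligands in some comparisons only. In C3Tag the fibroblast median was 0.23 while Ccl11 was at -1.31. Dendritic cell markers had median log2 ratios of -0.01 in Her2, 1.00 in C3Tag and 1.58 in the AKR-named comparison, with sums of 399 and 768, 464 and 925, and 572 and 1331. Itgax made up most of each sum. It had 309 in PT and 658 in Lung met of Her2, 293 and 648 in C3Tag, and 524 and 1154 in the AKR-named comparison. Fibroblast markers had medians of -1.23 in Her2, 0.23 in C3Tag, -1.25 in BALB, -2.37 in SEAGN and -1.45 in the AKR-named comparison. The genes of this list differed in direction. In the same order, Pdgfra was at 0.52, 0.80, 0.55, 0.44 and 0.94, and Pdgfrb at 0.07, 0.52, -0.00, -0.32 and 0.65. Col1a1, Col1a2 and Lum were lower in Lung met of every comparison, and Dcn in all but C3Tag, where it was at 0.75. The sums of the fibroblast list were 11383 in PT and 5776 in Lung met of Her2, 27421 and 24919 in C3Tag, 9030 and 3052 in BALB, 12395 and 2556 in SEAGN, and 14482 and 6060 in the AKR-named comparison. The part of dendritic cells in Ccl17 and Ccl22, and of fibroblasts in Ccl11, was not tested.

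Of the other lists, endothelial markers had median log2 ratios between 0.59 and 1.79, and mammary luminal markers between -0.23 and 0.08. The mammary luminal markers did not all go one way: in C3Tag, Epcam was at -0.68, Esr1 at -1.20 and Krt8 at 0.64. The share of tumor tissue in the samples was not measured. B cell markers were listed in C3Tag and the AKR-named comparison, with medians of 1.41 and 2.92, and NK cell markers in the same tables, with 0.91 and 1.84. Platelet marker medians lay between -0.67 and 2.22, with single genes between -1.11 and 4.02, and no adipocyte marker was listed.

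**Figure D4:**
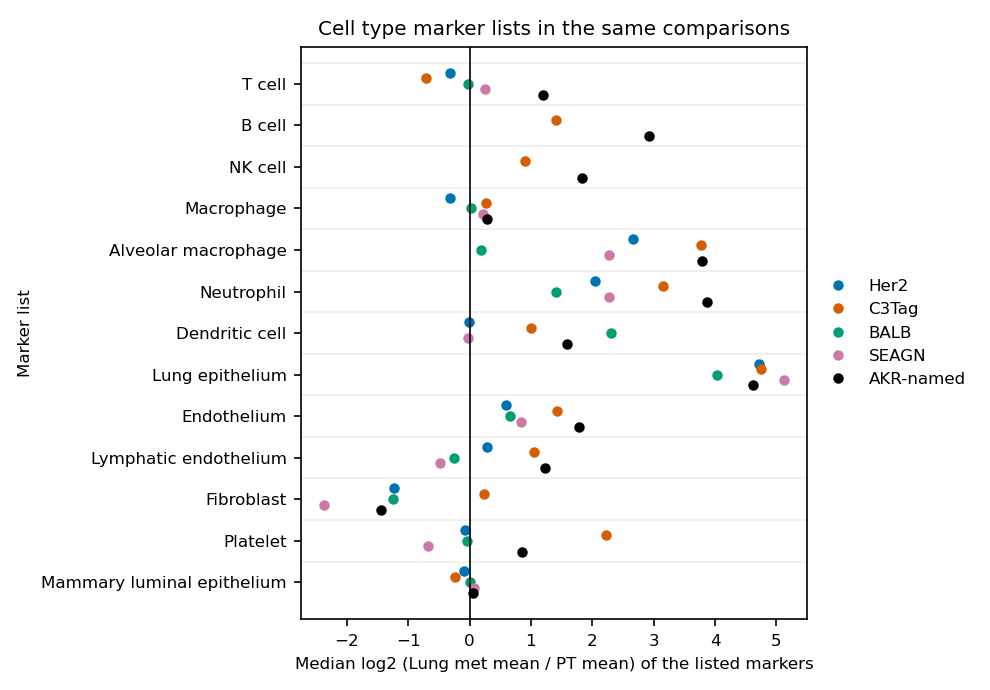
Median log2 ratio of the Lung met mean over the PT mean for the listed genes of 13 cell type marker lists (rows), 1 point per comparison, with a line at no difference. Neutrophil points lie between 1.41 and 3.87 and lung epithelium points between 4.04 and 5.12, macrophage points between -0.32 and 0.29, and fibroblast points below 0 except for C3Tag at 0.23.

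Cxcl17 and Ccl28, both ligands of mucosal epithelium, had large ratios in some comparisons and not in others. Cxcl17 had 7.51 in PT and 29.8 in Lung met of Her2, 18.7 and 337 in C3Tag, 24.3 and 30.2 in BALB, 35.3 and 24.4 in SEAGN, and 48.1 and 242 in the AKR-named comparison. The log2 ratios were 1.99, 4.17, 0.31, -0.53 and 2.33. BALB and SEAGN were thus within 2-fold. The lung epithelium markers given above were higher in Lung met in all 5 comparisons, and their part in the ratios of Cxcl17 was not tested. Ccl28, which binds Ccr10, was the one member past 2-fold in opposite directions. It had 309 in PT and 50.8 in Lung met of C3Tag, a ratio of -2.60, 122 and 722 in BALB, a ratio of 2.56, and 72.5 and 76.0 in SEAGN, a ratio of 0.07. Only 0.285% of genes in C3Tag had a lower ratio, and 99.8% did in BALB. Whether single animals set these means could not be seen.

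The other homeostatic ligands included both broadly present and rarely listed genes. Cxcl12, the stromal ligand of Cxcr4, had 1748 in PT and 2175 in Lung met of Her2, 456 and 914 in C3Tag, 188 and 209 in BALB, 213 and 269 in SEAGN, and 305 and 588 in the AKR-named comparison. Lung met was higher in each, with log2 ratios of 0.31, 1.00, 0.15, 0.34 and 0.95, and C3Tag was just past 2-fold. Cxcl16, the membrane-bound ligand of Cxcr6, was higher by 0.09 to 0.74. Ccl21a, the ligand of lymphatic vessels and lymph node stroma that binds Ccr7, was listed in the AKR-named comparison alone, with 113 in PT and 1440 in Lung met, a ratio of 3.67. Its near-identical copies could share reads with it, so its value is uncertain. Cxcl14, an epithelial and stromal ligand, went both ways, with 488 and 398 in Her2, 2906 and 2943 in C3Tag, 206 and 146 in BALB, 179 and 172 in SEAGN, and 309 and 452 in the AKR-named comparison, log2 ratios between -0.49 and 0.55. Ccl27a, a skin ligand of Ccr10 that also has a near copy and overlaps Il11ra1 on the other strand, lay between -0.47 and 0.17, and Ccl25, a gut and thymus ligand of Ccr9, between -0.28 and 0.16.

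Receptors of this group differed little in most tables. Cxcr4 lay between -0.25 and 0.51, Cxcr6 between -0.31 and 0.72 and Ccr7 between 0.48 and 0.88. Ccr10 was lower in Lung met in all 5 comparisons, between -0.74 and -0.04, at means of 22.5 or less in either tissue. Ccr6, of Th17 and B cells, lay between 0.30 and 0.86, and Ccr9, the gut-homing receptor, between -0.67 and 0.01. Of the ligands not yet given, Xcl1, which binds Xcr1, was at -0.65 in Her2 and 0.34 in the AKR-named comparison, and Cxcl13, the ligand of Cxcr5, at -0.69 in the AKR-named comparison alone. Among the receptors of this group, past 2-fold were only Cxcr5, the receptor of B cell follicles, at 1.01 in SEAGN and 1.22 in the AKR-named comparison, and Xcr1, the receptor of cross-presenting dendritic cells, at 2.23 in the AKR-named comparison. Both rested on low means, 3.85 and 7.74 for Cxcr5 in SEAGN and 4.98 and 23.3 for Xcr1 in the AKR-named comparison. Clec9a, a marker of the same dendritic cells, had log2 ratios of 1.00 in Her2, 2.52 in C3Tag, 2.30 in BALB, 2.45 in SEAGN and 2.94 in the AKR-named comparison. Batf3, another gene of those cells, was at -0.04 in Her2, 0.28 in C3Tag, -0.04 in SEAGN and 1.76 in the AKR-named comparison, and Xcr1 itself at -0.17 in Her2, 0.05 in C3Tag and 0.46 in SEAGN. The part of these cells in the ratio of Xcr1 was not tested.

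Of the atypical receptors, only Ackr2 differed by 2-fold. Ackr2 had 37.0 in PT and 117 in Lung met of Her2, 33.5 and 190 in C3Tag, 11.1 and 37.0 in BALB, 9.35 and 55.9 in SEAGN, and 22.8 and 255 in the AKR-named comparison. The log2 ratios were 1.66, 2.50, 1.74, 2.58 and 3.49, so that Lung met was between 3.17-fold and 11.2-fold higher, and at least 98.7% of genes in every table had a lower ratio. Lymphatic endothelium is a known site of this receptor. Of its markers, Lyve1 had log2 ratios of 1.88, 2.84, 1.77, 1.77 and 3.48 in that order, whereas the median of Lyve1, Prox1 and Flt4 was 0.28, 1.05, -0.26, -0.48 and 1.23. The list's sum was 382 and 659 in Her2, 413 and 1377 in C3Tag, 171 and 225 in BALB, 188 and 217 in SEAGN, and 294 and 1442 in the AKR-named comparison. Prox1 was at -0.07 in Her2, 1.05 in C3Tag, -0.41 in BALB, -0.65 in SEAGN and -0.73 in the AKR-named comparison, and Flt4 at 0.28, 0.68, -0.26, -0.48 and 1.23. The part of lymphatic endothelium in the ratio of Ackr2 was not tested.

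Ackr3, which takes up Cxcl12, had 198 in PT and 292 in Lung met of Her2, 712 and 1105 in C3Tag, 93.5 and 114 in BALB, 126 and 118 in SEAGN, and 421 and 581 in the AKR-named comparison, log2 ratios of 0.56, 0.63, 0.28, -0.09 and 0.47. Ackr4, a scavenger of Ccr7 and Ccr9 ligands, lay between -0.07 and 0.44. Ackr1, the receptor of red cells and venules, was listed with means in SEAGN alone, at 5.44 in PT and 3.03 in Lung met, a ratio of -0.84 at a low level. It shares its strand and position with part of Cadm3 in the annotation, so reads of both could mix.

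Related genes outside these families were counted in the same way. A list of 7 held Pf4, Ppbp, Ccrl2, Cmklr1, Rarres2, Gpr182 and Dpp4, not all of them chemokines or chemokine receptors. Of these, 2 of 7 were at least 2-fold higher and 1 lower in Her2, 5 of 7 higher in C3Tag, 0 of 4 in BALB, 0 of 5 in SEAGN and 3 of 7 in the AKR-named comparison, beside 2.38%, 7.42%, 2.26%, 2.86% and 7.31% of all genes. The 5 in C3Tag included Dpp4, at 2.67, and Cmklr1, at 1.40. Gpr182, an endothelial scavenger of chemokines, was higher in all 5, at 1.07 in Her2, 1.74 in C3Tag, 0.68 in BALB, 0.73 in SEAGN and 3.05 in the AKR-named comparison. Of 45 genes of the signalling path below the receptors, 1 of 43 was at least 2-fold higher in Her2, 7 of 43 in C3Tag, 0 of 42 in BALB, 2 of 42 in SEAGN and 5 of 43 in the AKR-named comparison, with none lower. The shares of all genes just given are the background of these counts too. The median log2 ratio of the signalling genes was 0.03 in Her2, 0.32 in C3Tag, 0.13 in BALB, 0.12 in SEAGN and 0.06 in the AKR-named comparison. Single genes differed more and not all one way. In the same order, Fgr, a kinase of myeloid cells, had log2 ratios of 1.04, 1.44, 0.74, 1.55 and 2.02. Rac2, the leukocyte GTPase of cell crawling, had 0.03, 1.52, 0.33, 1.06 and 1.60, and Pik3cg 0.12, 1.68, -0.87, -0.77 and -0.82.

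In the annotation, 3 members overlap another gene on their own strand, Ackr1, Ccr9 and Cx3cr1, and 17 overlap a gene on the other strand. Among those with the larger ratios, the latter include Ccl6, Ccl21a, Cxcl10, Cxcl15 and Cxcl17. Reads of such pairs could have been counted for either gene if strand was not used.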

How the data were processed

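For the authors' tables, reads were aligned and gene counts made and normalized within Partek Flow. For PT against Lung met, the authors used Gene Specific Analysis in the driver models and DESeq2 in the PyMT-F1 crosses. The submitters' processing notes name STAR 2.7.8a and mm39, the paper's methods mm9 and mm10. The labels describe a stranded total RNA kit and the methods an mRNA kit. How counting used strand is not given in the sources used here, and 17 of 48 members overlap a gene on the other strand. The deposited signal, 1 least-squares mean of normalized counts per tissue, was used as a group mean. The authors' p-values, FDR, ratios and fold changes were not used. The Myc table was used for gene names only. Depth per sample is unknown. Rows without a mean were left out, 0 in Her2, 1 in C3Tag, 93 in BALB, 53 in SEAGN and 116 in the AKR-named table.

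From the means the log2 ratio was computed with Python 3.11.15, numpy 2.4.6 and pandas 2.3.3, rank correlations with scipy 1.17.1 and figures with matplotlib 3.10.9. The ratio step was tested on simulated data. Some genes of these families are not reported here. Members, roles and marker lists were chosen with earlier results of these data known. Members named were those with 1 direction in all 5 comparisons and a median of 2-fold or more, those past 2-fold in both directions, the Ackr genes and, per comparison, the 3 highest and 3 lowest ratios at or above the lower quartile of level. That rule named 19 members, and the others, like the marker and pathway genes given singly, were chosen after their values were seen. Alternatives were a pseudocount of 1, a filter at the lower quartile of level, centring on the median of all genes and leaving out the AKR-named table.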

Additional observations from a re-analysis of the deposited data

How the results depend on the processing

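No paired analysis was possible because the tables hold group means only, and for the same reason no replicate could be left out. Counts were taken as unchanged within 1.5 times, and medians where they moved by less than their SD over the 5 comparisons, 0.28 for ligands and 0.24 for receptors. These SDs include the AKR-named comparison and exceed most medians of the others, so a median called unchanged could still lose its whole size. With the level filter the SEAGN medians went from 0.05 to -0.00 for ligands and from 0.22 to 0.08 for receptors, and counted as unchanged. Centring on the median of all genes and leaving out the AKR-named table moved none of the 22 and 2 values recomputed. Centring shifts a ratio by at most 0.03, so the medians could not have moved past their limit. With only genes at or above the lower quartile of level, fewer members were counted. At least 2-fold higher were then 2 of 19 in Her2, 3 of 19 in SEAGN and 9 of 25 in the AKR-named comparison. Without the filter they were 4 of 37, 5 of 29 and 15 of 42, so the counts fell together with the members kept. Members 2-fold lower in C3Tag were 1 of 26, and the median log2 ratio of the receptors was 0.63 in C3Tag and 0.47 in the AKR-named comparison. The shares of all genes given above are without the filter. With a pseudocount of 1, members 2-fold higher in SEAGN numbered 3. Members lower in every comparison numbered 1, Cx3cr1, with the level filter in each, and Cxcr2 and Ackr2 then left the list of members higher in every comparison, because each lay under the lower quartile in 1 table, Cxcr2 in Her2 and Ackr2 in BALB. Fewer genes enter under the filter by its construction. Low means, unknown depth and the lack of values per animal limit all ratios, and those of genes with means under the lower quartile most.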
